A study of Homo sapiens with 7 samples.

Results

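Very broad pThr4 domains were stretches of the genome, at least 10 kb wide, that peaks of RNA polymerase II phosphorylated on threonine 4 covered without a break when all peak lists were laid over each other. Peaks on chromosomes 1 to 22 and X from 6 lists were merged wherever they shared at least 1 bp, which gave 41740 regions, and the 316 regions that reached 10 kb were kept. They made up 0.757% of the regions and 8.39% of their bases, 4.41 Mb of 52.5 Mb. The members were thus selected on the measured width of the peaks, and their widths, and how much of them the lists covered, are given as a description without a test.

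The lists came from chromatin immunoprecipitation sequencing (ChIP-seq) with the pThr4 antibody 6D7 in HEK293 cells, an established line of human embryonic kidney origin. Nuclear lysate was divided and incubated in the tube with active SCP1 phosphatase (SCP1_WT, 3 biological replicates) or with the catalytically inactive SCP1 D96A variant (SCP1_D96A, 3 biological replicates), and no other agent or allele was named. The comparison was made to locate threonine 4 phosphorylation that the antibody reaches only after the neighbouring serine 5 phosphate has been removed. An IgG control precipitation was not analysed here. All samples were of a single cell line and both treatments were applied to lysate, so the lists describe what the antibody precipitated after enzyme treatment and not a state of living cells that lack a phosphatase.

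The largest subunit of RNA polymerase II carries a tail of repeated heptapeptides, the C-terminal domain (CTD), whose phosphates change as the enzyme moves along a gene. Serine 5 phosphate is known from the start of genes and is removed by small CTD phosphatases such as SCP1, serine 2 phosphate accumulates towards the end of genes, and threonine 4 phosphate is best known from the region around and beyond the polyadenylation site, where transcripts are cleaved and the polymerase is released. Replication-dependent histone genes, whose transcripts end in a stem-loop and not in a poly(A) tail, are a textbook setting for threonine 4 phosphate. The annotated end of a gene is called here the transcription end site (TES), its annotated start the transcription start site (TSS).

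Because several domains hold microRNA hairpins, the mature sequences of 6 of them are shown first, with bases 2 to 8, the seed by which a microRNA recognises its targets, in capitals. The RefSeq sequence table (GRCh38.p14) placed 35 hairpins in 27 domains. The first pair below lies in the domain of the microRNA host gene MIRLET7BHG, the second pair lies in the domains over the ends of SREBF2 and SREBF1, which encode the master transcription factors of cholesterol and fatty acid synthesis, and the last pair lies in stretches that peaks of all 6 lists covered. This choice was made after the values were seen.
hsa-let-7a-5p, chr22:46112752-46112773 (+): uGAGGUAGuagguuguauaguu
hsa-let-7b-5p, chr22:46113691-46113712 (+): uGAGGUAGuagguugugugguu
hsa-miR-33a-5p, chr22:41900949-41900969 (+): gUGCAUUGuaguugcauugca
hsa-miR-33b-5p, chr17:17813897-17813916 (-): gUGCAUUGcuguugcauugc
hsa-miR-4746-5p, chr19:4445987-4446009 (+): cCGGUCCCaggagaaccugcaga
hsa-miR-3187-3p, chr19:813627-813646 (+): uUGGCCAUggggcugcgcgg

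The let-7 pair shared the seed GAGGUAG and the miR-33 pair shared UGCAUUG. Among the 64 mature sequences in the domains, 5 seeds occurred in 2 sequences each. Peaks of all 3 SCP1_WT libraries covered the position of let-7a-5p, let-7b-5p and miR-33b-5p, and no SCP1_D96A peak did. Shortly past the let-7b hairpin, which ended 30096 bp from the domain start, SCP1_D96A replicates 1, 2 and 3 each had a peak. These peaks started at 30618, 30732 and 30422 bp. miR-33a-5p was covered in SCP1_WT replicates 2 and 3 alone. Of the 64 positions, 44 were covered in all 3 SCP1_WT lists, 19 in at least 1 SCP1_D96A list and 4 in all 6 lists, and these 4 were the arms of miR-4746, in the domain of CHAF1A and UBXN6, and of miR-3187, in the domain of PTBP1, a splicing regulator, and PLPPR3. SCP1_D96A peaks together filled 26.1% of all domain bases, so nothing particular to microRNAs is read from these counts.

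The lists differed greatly in length. SCP1_WT replicates 1, 2 and 3 held 12625, 6680 and 36892 peaks on these chromosomes, and the SCP1_D96A replicates held 2466, 1163 and 2699. SCP1_WT replicate 3 stood apart: it covered the most bases in 277 of the 316 domains and held the longest peak in 270. Peak names also carried a shared tag for replicates 1 and 2 of both groups and another for replicate 3, whose meaning is not stated. Merging without SCP1_WT replicate 3 left 108 domains, whereas leaving out any other library left between 273 and 316. Values without that library stand beside the results it moved most, and the promoter, microRNA and named-domain values rest on all 6 lists. The lists hold no read counts, so the depth of the libraries is unknown.

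The domains were 10011 to 36613 bp wide with a median of 12540.5 bp. In 131 of them the width was 10 to 12 kb, 89 reached 15 kb and 23 reached 20 kb. Just inside the threshold lay regions over NCLN (10011 bp), CLPTM1L (10015 bp) and ACP4 (10030 bp), and just outside it lay regions over PRRC2B and POMT1 (9994 bp), ATAD3B (9961 bp) and PRR5 (9955 bp). In 268 domains a single peak was itself at least 10 kb long. The other 48 reached that width by the joining of shorter peaks of different libraries.

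Single peaks of 10 kb or more were found in 89, 25 and 253 domains in SCP1_WT replicates 1, 2 and 3. In SCP1_D96A they were found in 6, 1 and 3 domains, 8 different domains in all. The median of the longest peak per domain, over the domains with a peak in that list, was 7380, 4240 and 11617.5 bp in the SCP1_WT libraries and 1914.5, 1556 and 1994.5 bp in the SCP1_D96A libraries. The groups did not overlap in this median, and SCP1_WT replicate 3 was the library whose peaks ran longest. In the 108 domains merged without it, the medians were 11451.5 and 7854.5 bp in SCP1_WT and 3469, 2467 and 3816 bp in SCP1_D96A.

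**Figure D1:**
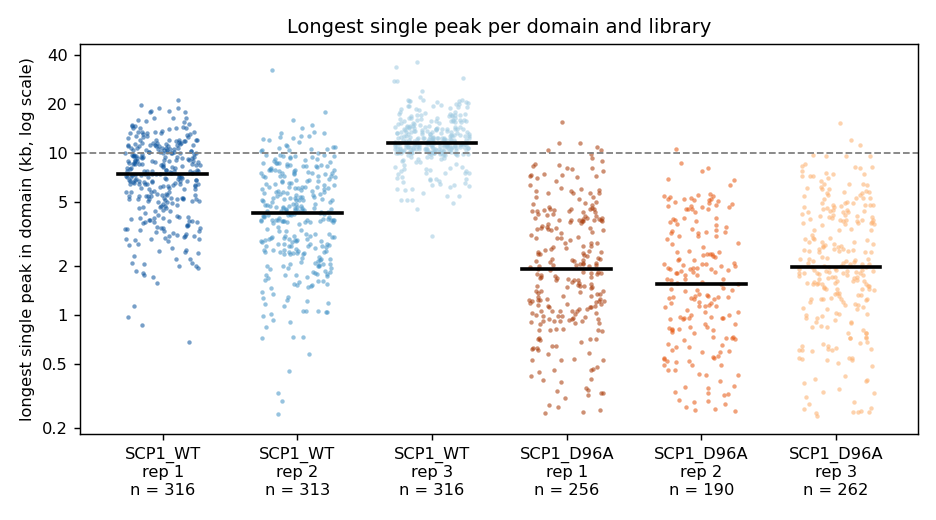
Longest single peak in each domain (kb, log scale) in each of the 6 libraries, 1 point per domain with a peak in that list, black bars marking the medians and the dashed line 10 kb. The SCP1_D96A medians lie between 1556 and 1994.5 bp and the SCP1_WT medians between 4240 and 11617.5 bp.

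The widest domain, 36613 bp at chr14:105437299-105473911, ran through the last part of MTA1, a subunit of the NuRD chromatin remodelling complex, past its TES and into the start of CRIP2, which encodes a LIM domain protein. SCP1_WT peaks covered 71.6%, 54.9% and 100% of it in replicates 1, 2 and 3, and SCP1_D96A peaks covered 4.66%, 2.31% and 11.9%. In SCP1_WT replicate 3 a single peak spanned all of it, whereas SCP1_WT replicates 1 and 2 split it into 7 and 9 peaks. The highest fold enrichment of a peak in it, which the caller gives as signal over its background averaged along the peak, was 4.50, 4.57 and 4.43 in SCP1_WT and 4.70, 3.59 and 4.66 in SCP1_D96A. Cover in every SCP1_WT library exceeded that in every SCP1_D96A library, while the fold enrichment, which has no scale shared by the libraries, is given as a description.

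The second domain (33958 bp, chr22:46083673-46117630) held all of MIRLET7BHG and the hairpins of let-7a-3, let-7b, miR-3619 and miR-4763. SCP1_WT peaks covered 64.0%, 39.7% and 100% of it and SCP1_D96A peaks 7.35%, 3.72% and 10.1%. The third (32584 bp, chrX:73804792-73837375) lay across the 3′ end of XIST, the long non-coding RNA of X chromosome inactivation, with 48.7% of its bases past that end, where its antisense gene TSIX runs. It was unlike the others of its width. SCP1_WT peaks covered 96.03%, 100% and 82.2% and SCP1_D96A peaks 59.4%, 48.0% and 61.0%, and each SCP1_D96A library had a single peak of over 10 kb there (15555, 10621 and 15300 bp). Of the bases of these 3 peaks, 91.4%, 83.5% and 95.8% lay past the 3′ end of XIST and not in the gene. Of the longest SCP1_WT peaks, 83.4%, 48.7% and 78.2% of the bases lay there. The highest fold enrichment was 8.66, 7.09 and 11.1 in SCP1_WT and 9.69, 8.58 and 8.74 in SCP1_D96A, and the highest −log10 p-value was 39.5, 27.3 and 58.6 against 40.2, 38.5 and 34.0. A second domain over the 5′ part of XIST (11614 bp) was covered to 100%, 82.3% and 54.7% in SCP1_WT and to 44.7%, 30.3% and 35.7% in SCP1_D96A. In both XIST domains SCP1_WT replicate 3 covered less than SCP1_WT replicates 1 and 2.

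The next widest domains held the ends of genes of very different lengths. A domain of 32194 bp on chromosome 9 held the TES of GPSM1, DNLZ and CARD9, and SCP1_D96A peaks together filled 12.3% of it. Another of 29286 bp on chromosome 9 held the TES of 5 genes, RABL6, AJM1, PHPT1, MAMDC4 and EDF1, with 21.3% filled. The domain with the most gene ends, 27926 bp at chr16:672018-699943, held 6, those of RHOT2, RHBDL1, JMJD8, STUB1, WDR24 and FBXL16. STUB1 encodes the ubiquitin ligase CHIP and RHOT2 a GTPase of the mitochondrial outer membrane. SCP1_WT peaks covered 54.8%, 39.2% and 100% of this domain and SCP1_D96A peaks 23.6%, 10.6% and 26.5%. The domain ranked sixth thus held short genes, of which 4 lay whole in it. The domains ranked 7 to 10 lay over the ends of GRAMD1A, of PSMG4 and SLC22A23, of NUBP2, IGFALS and HAGH, and of GTPBP1 and SUN2, and SCP1_D96A peaks filled between 14.2% and 28.9% of each.

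**Figure D2:**
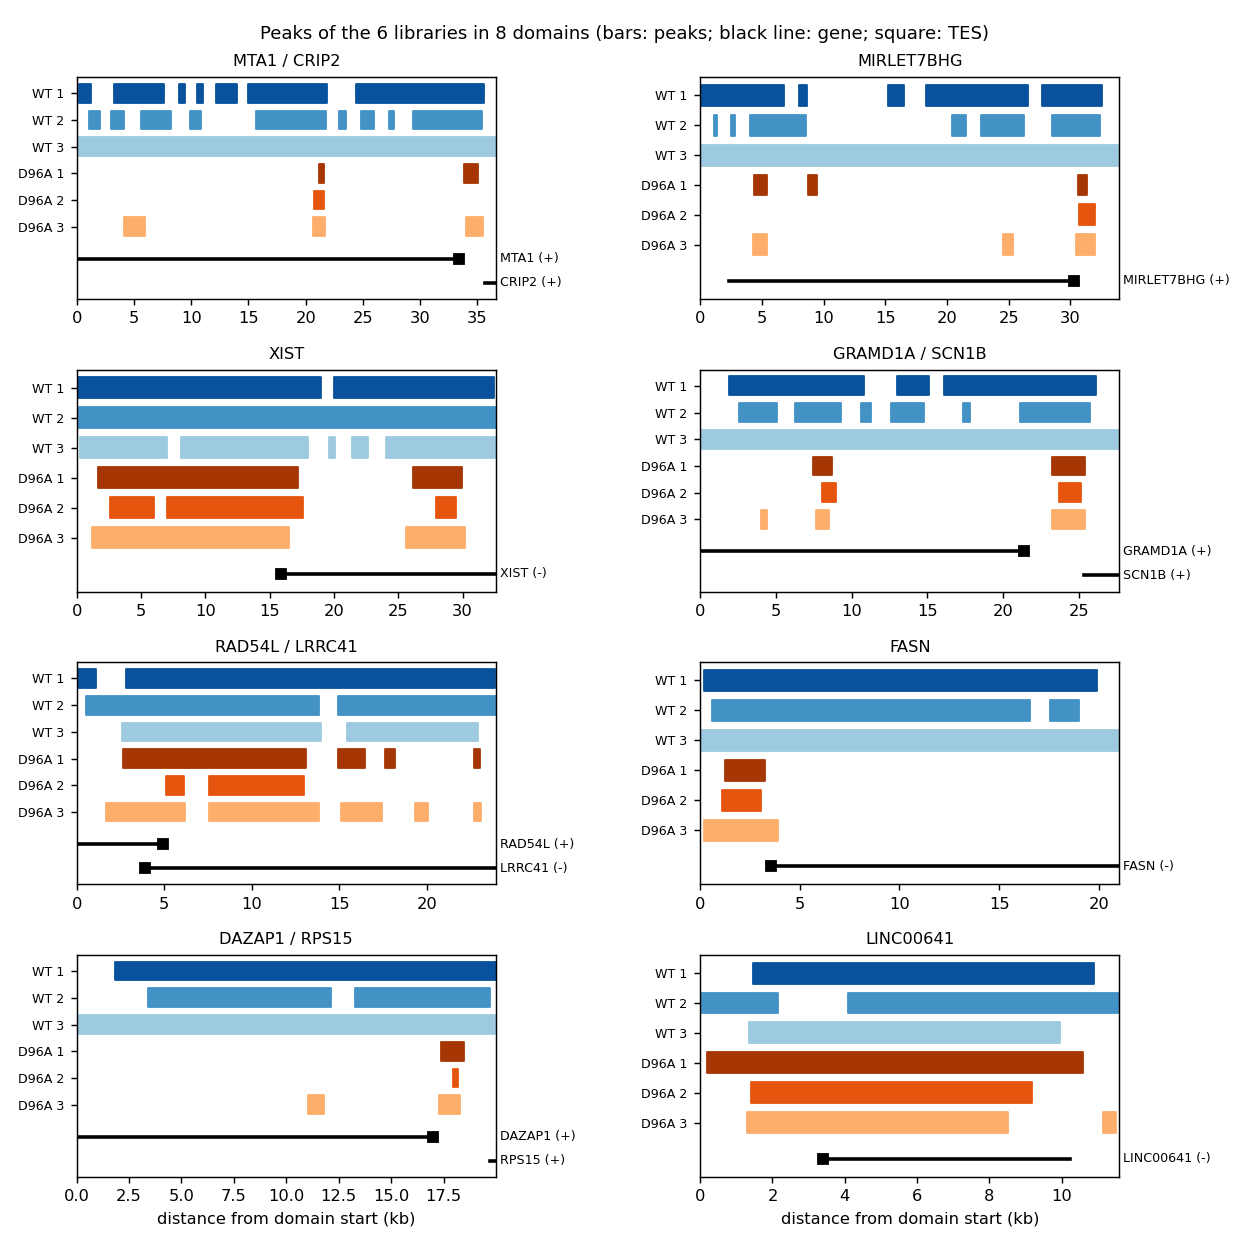
Peaks of the 6 libraries in 8 domains against the distance from the start of the domain (kb). Coloured bars are peaks, black lines are genes with their strand and squares mark the TES. In the FASN and DAZAP1 domains most SCP1_D96A bars lie just past the TES. In each SCP1_D96A library the bars fill 48.0% to 61.0% of the XIST domain and 65.1% to 89.6% of the LINC00641 domain.

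Domains differed in how many lists had a peak in them. All 6 lists had a peak in 183 domains (57.9%), against 27.3% of regions of 5 to 10 kb and 1.96% of all 41740 regions. Another 62 domains were shared by 5 lists, 35 by 4, 33 by 3 and 3 by 2. All 3 SCP1_WT lists had a peak in 313 domains, the exceptions being those over CCDC40 and GAA, over ARHGEF1 and ERFL, and in AGPAT3, which SCP1_WT replicate 3 spanned, replicate 1 touched and replicate 2 left empty. No SCP1_D96A list had a peak in 36 domains. Where at least 10% of the domain had to be covered in each list, the domains shared by all 6 lists numbered 106. A wide region offers more bases for a peak to fall on, so these shares are not a property set apart from width.

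In bases, SCP1_WT replicates 1, 2 and 3 covered 3.11, 2.12 and 4.20 Mb of the domains (3.14 ± 1.04 Mb, SD, n = 3) and the SCP1_D96A replicates covered 0.841, 0.479 and 0.900 Mb (0.740 ± 0.228 Mb, SD, n = 3). Every SCP1_WT library lay above every SCP1_D96A library. The log2 ratio of the group means of log2 bases was 2.09, a 4.25-fold difference, with a pooled SD of 0.497 among replicates. On the same domains, whose bounds SCP1_WT replicate 3 helped to set, the libraries of replicates 1 and 2 alone gave 2.02. The domains merged anew without SCP1_WT replicate 3 gave 1.48. An exact permutation test of 3 against 3 libraries cannot give a two-sided p below 0.1, and because the domains were selected on these peaks no p is given.

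Cover was also measured in each library on domains merged without it. When the domains were defined from the other 5 libraries, the library left out covered 69.6%, 47.6% and 93.9% of the domain bases for SCP1_WT replicates 1, 2 and 3 and 18.9%, 10.9% and 20.4% for SCP1_D96A replicates 1, 2 and 3. Because nearly all domains owed their width to the remaining SCP1_WT lists, these values are a description and the order of the groups in them is not read as independent of the selection. Held-out SCP1_WT libraries had a peak in 99.0% to 100% of the domains and held-out SCP1_D96A libraries in 60.1% to 82.9%.

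Taken domain by domain, the covered bases of every SCP1_WT library exceeded those of every SCP1_D96A library in 301 of 316 domains (95.3%). Over all regions the share was 7.94%, and over regions of 5 to 10 kb it was 75.9%. Since the rule used the same peaks, nothing is read from these differences. No domain had every SCP1_D96A library above every SCP1_WT library. The 15 domains in which the groups overlapped or tied included those over VEZF1 and SRSF1, COL18A1, IRS4, FLNA, RECQL4 and LINC00641. SCP1_D96A replicate 1 exceeded the least covering SCP1_WT library in 7 domains, replicate 3 in 5 and replicate 2 in none.

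SCP1_D96A peaks of the 3 libraries together filled 26.1% of all domain bases. The median domain was filled to 21.6%, with quartiles of 8.92% and 38.0%, and 36 domains were filled to more than 50%, 138 to more than 25% and 234 to more than 10%. With the domains merged without SCP1_WT replicate 3, which were those wide in the remaining lists, the filled share was 44.7%.

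**Figure D3:**
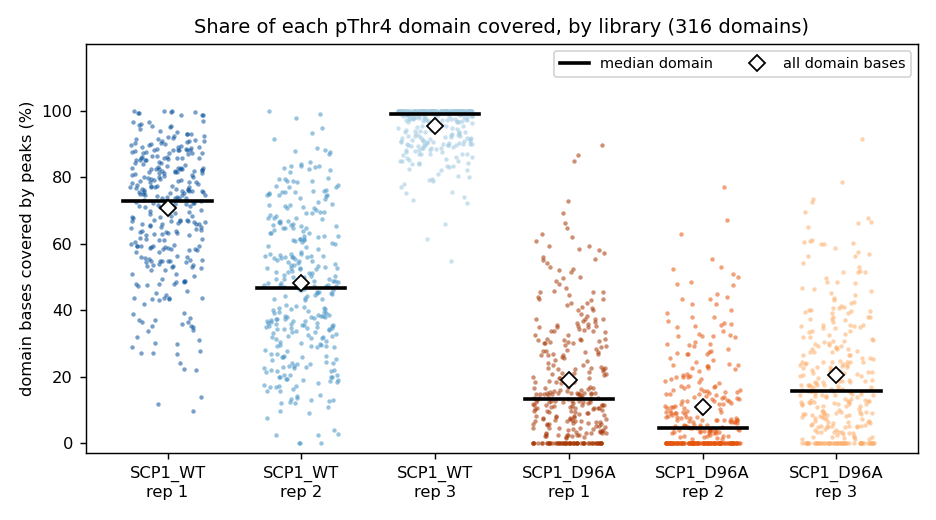
Percent of each of the 316 domains covered by the peaks of each library, 1 point per domain. Black bars are the medians over domains (46.7% to 99.0% in SCP1_WT, 4.68% to 15.8% in SCP1_D96A) and diamonds the share of all domain bases, and in percentage points the SCP1_WT libraries differ among themselves more than the SCP1_D96A libraries.

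Among the domains with peaks in all 6 lists, SCP1_D96A peaks filled most of LINC00641, of RECQL4 and of SRSF1. LINC00641 is a long non-coding RNA gene next to HNRNPC, and its domain of 11589 bp (chr14:21196684-21208272) was filled to 92.6%. This domain lay 875 bp from HNRNPC. SCP1_WT peaks covered 81.1%, 83.4% and 74.1% of it and SCP1_D96A peaks 89.6%, 67.0% and 65.1%, so the groups overlapped. The domain of 10510 bp over RECQL4, a DNA helicase gene, was filled to 91.5%. The domain of 12266 bp from VEZF1 to the TES of SRSF1, which encodes an SR splicing factor, was filled to 91.4%, and its highest fold enrichment was 5.65, 4.56 and 8.35 in SCP1_WT and 5.40, 4.44 and 5.55 in SCP1_D96A.

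Towards the other end, SCP1_D96A peaks filled 8.67% of the domain over SUMF2 and PHKG1 and 9.76% of the 19996 bp over DAZAP1, an RNA-binding protein gene, and the start of RPS15, a ribosomal protein gene. In the DAZAP1 domain SCP1_WT peaks covered 90.7%, 76.0% and 99.8%, and SCP1_D96A peaks 5.34%, 1.37% and 8.89%. The highest fold enrichment there was 4.20, 4.07 and 4.50 in SCP1_WT and 4.78, 4.39 and 4.82 in SCP1_D96A. Fold enrichment is relative to the background of each library, so these values are not ranked between the groups.

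A single SCP1_D96A peak of 10 kb or more occurred in the domains over XIST, LINC00641, RAD54L and LRRC41, RPL36 and LONP1, SELENOO and TUBGCP6, CRLF3, ZNF276 and FANCA, and ACAP3, PUSL1 and INTS11. RAD54L and FANCA act in DNA repair, LONP1 is the Lon protease of mitochondria, and INTS11 is the endonuclease of the Integrator complex, which cleaves nascent RNA. The domain over RPL36, which encodes a protein of the large ribosomal subunit, and LONP1 was 21315 bp wide. It was covered to 94.4%, 69.6% and 100% in SCP1_WT and to 45.4%, 38.1% and 56.2% in SCP1_D96A, with a highest fold enrichment of 8.48, 7.79 and 8.92 against 6.70, 5.47 and 6.68. SCP1_D96A peaks filled between 56.9% and 92.6% of these 8 domains.

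**Figure D4:**
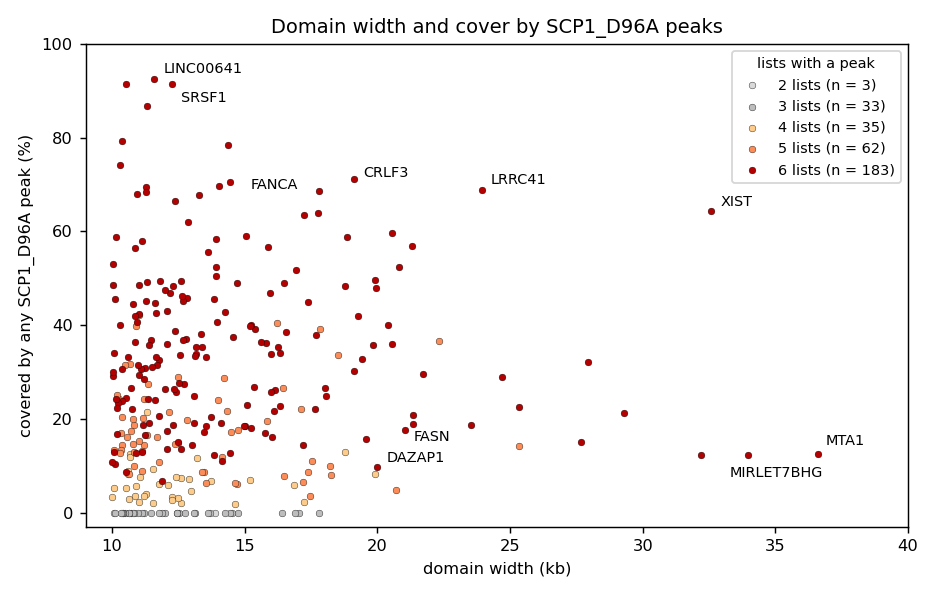
Width of each domain (kb) against the percent of it that peaks of any SCP1_D96A library fill, coloured by the number of lists with a peak. Domains of similar width spread from 0% to over 90% near 10 to 12 kb, and among the 3 widest, XIST stands at 64.4% while MTA1 and MIRLET7BHG stand at 12.5% and 12.2%.

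Gene ends were the feature most domains shared. A TES of a protein-coding gene lay in 274 domains (86.7%), against 63.0% of the regions of 5 to 10 kb and 6.20% of all regions. Per 10 kb of sequence the density was 1.09 TES in the domains, 1.31 in regions of 5 to 10 kb, 0.830 in regions of 2 to 5 kb and 0.252 in regions under 2 kb. The higher share of domains with a TES thus went along with their width and not with a higher density than in regions of 5 to 10 kb. Without SCP1_WT replicate 3 the share was 92.6% of the domains and 71.6% of the regions of 5 to 10 kb, at 1.27 and 1.55 TES per 10 kb. In all, 480 TES, 2.46% of the 19486 in the annotation, lay in domains. The median length of these genes was 18775 bp, against 24806.5 bp for all protein-coding genes with a known strand. The density of TSS moved the other way, from 0.568 per 10 kb in regions under 2 kb to 0.293 in the domains.

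By number of gene ends, 111 domains held 1 TES, 133 held 2, 22 held 3 and 8 held 4 or more, and 42 held none. Of the 133 domains with 2 gene ends, 125 held the ends of genes that face each other on opposite strands, in 55 of which the annotated genes overlapped at their ends, and 8 held genes on the same strand. In the 125 domains the distance from one facing end to the other had a median of 148 bp with overlaps counted as negative, and of 1297 bp when the sign was dropped. Of the TES in domains 66.3% had a facing TES within 5 kb, against 56.6% of the TES in regions of 5 to 10 kb and 21.0% of all TES. Without SCP1_WT replicate 3 the shares were 74.7% in domains and 63.6% in regions of 5 to 10 kb, and 50 of the 53 domains with 2 TES held facing ends. Examples were PSMG4 and SLC22A23, whose ends lie 924 bp apart, and RPL36 and LONP1, whose ends overlap by 41 bp.

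In the 111 domains with 1 TES the position of the cover differed between the groups. These domains reached a median of 8384 bp into the gene from its TES and 4840 bp past it, and 42 reached farther past the TES than into the gene. Of the bases covered by SCP1_WT peaks, the median domain had 37.1%, 44.5% and 38.3% downstream of the TES in replicates 1, 2 and 3. For SCP1_D96A peaks it had 73.4%, 91.1% and 73.6%, over the 90, 77 and 93 domains with a peak in that list. In the 72 such domains with peaks in all 6 lists the values were 36.8%, 41.3% and 36.5% against 65.2%, 79.3% and 63.5%. Every SCP1_D96A library had a larger median downstream share than every SCP1_WT library in both sets. Each domain counts the same in these medians, and a list with 1 short peak in a domain could have all or none of its cover past the TES. The groups lay closer in the 37 domains with 1 TES that were merged without SCP1_WT replicate 3, with 27.5%, 30.2% and 27.8% in SCP1_WT, replicate 3 measured on domains it did not help to define, and 51.4%, 52.4% and 43.5% in SCP1_D96A. Single domains departed from the medians, and in 30, 29 and 38 of the 90, 77 and 93 domains with a SCP1_D96A peak less than 50% of that cover lay past the TES. In the SERHL2 and PCGF3 domains no base under a SCP1_D96A peak lay past the TES. Position within a domain was not used in choosing the domains, but their ends were set mostly by SCP1_WT peaks, and the p-value that 3 against 3 libraries can reach is no lower than 0.1 in an exact permutation test.

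The libraries' downstream shares also set the groups apart when the lists were shortened within the same domains. The ends of these domains, set mostly by SCP1_WT peaks, stayed those of the full lists. The shortening thus does not test how the shares depend on those ends. When each list was reduced to its 1163 strongest peaks, the median downstream share was 37.1%, 50.4% and 32.96% in SCP1_WT and 70.6%, 91.1% and 77.9% in SCP1_D96A. With every peak under 6 on the −log10 p scale left out it was 38.5%, 50.4% and 39.7% against 76.6%, 100% and 87.4%. The medians rested on the 54 to 77 domains with a remaining peak in the first setting and on 50 to 74 in the second. Both settings were added after the data had been seen.

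Along the distance from the TES, SCP1_D96A cover was highest at 875 bp past it in all 3 libraries, where 43.2%, 26.1% and 44.1% of the 111 domains were covered. At 4875 bp inside the gene between 8.11% and 9.01% of the domains were covered. SCP1_WT cover was highest at 625 bp past the TES in replicate 1 (82.0%), at 125 bp past it in replicate 2 (73.0%) and at 625 bp before it in replicate 3 (95.5%), and at 4875 bp inside the gene it still stood at 58.6%, 34.2% and 73.9%. SCP1_WT peaks covered the TES itself in 86, 79 and 104 domains and SCP1_D96A peaks in 30, 16 and 29. SCP1_D96A cover stood above 50% of its own highest value from between -1.625 and -1.125 kb inside the gene to between 2.375 and 2.625 kb past the TES. At 4875 bp past the TES it was 6.31%, 4.50% and 9.01%, near its level at the same distance inside the gene, and its mean over the bins past the TES (13.5%, 7.93% and 15.6%) was not far above that over the bins inside the gene (11.9%, 6.94% and 12.3%). SCP1_D96A cover thus had its maximum shortly past the gene end and extended to both sides of it. In the same bins the SCP1_WT means were 39.5%, 27.9% and 56.8% past the TES and 53.3%, 34.5% and 72.7% inside the gene. By these means the groups lay closer than by the median downstream shares. Over all 480 TES in domains, SCP1_WT cover was nearly even on the 2 sides, with means of 51.2% inside the gene and 51.7% past its end in replicate 1. The SCP1_D96A means were 13.8%, 7.89% and 14.7% inside the gene and 15.5%, 8.73% and 17.2% past its end. Of these TES, 66.3% had a facing TES within 5 kb, so bases past 1 gene end often lay inside the facing gene or close to its end.

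**Figure D5:**
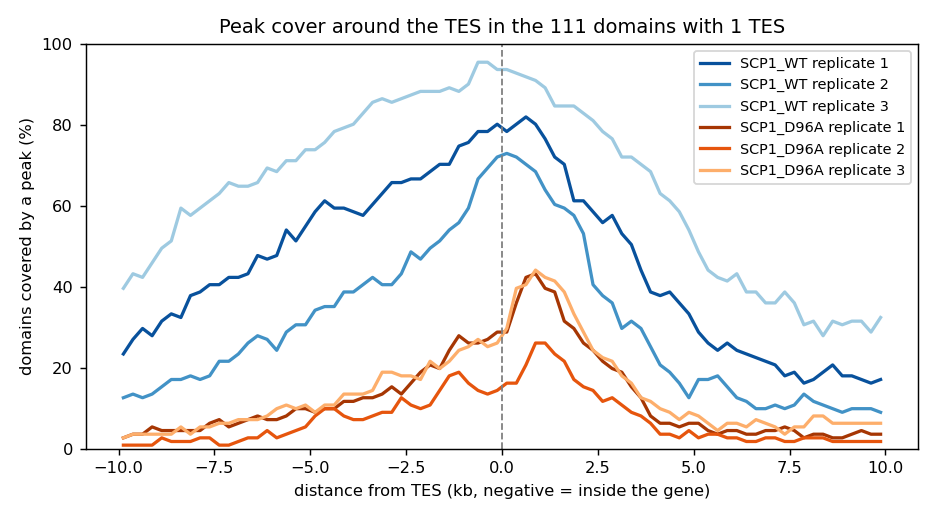
Percent of the 111 domains with 1 TES that peaks of each library cover, by distance from the TES in bins of 250 bp (kb, negative inside the gene). The SCP1_D96A curves peak 875 bp past the TES at 26.1% to 44.1%, and the SCP1_WT curves extend farther to the left than to the right.

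FASN, which encodes fatty acid synthase, had SCP1_D96A cover mostly past its end. Its domain of 21024 bp on chromosome 17 ran from 3568 bp past the TES far back into the gene, and it held the snoRNA gene SNORD134. SCP1_WT peaks covered 93.9%, 82.8% and 100% of the domain, with longest peaks of 19734, 15943 and 21024 bp. SCP1_D96A covered 9.66%, 9.34% and 17.7%, in 1 peak each of 2030, 1963 and 3717 bp, of whose bases 100%, 100% and 91.1% lay past the TES. The fold enrichment of the strongest peak was 4.49, 4.67 and 4.52 in SCP1_WT and 5.10, 4.19 and 5.12 in SCP1_D96A. GRAMD1A, a sterol transport gene, was similar: SCP1_D96A covered 12.6%, 8.75% and 12.5% of its domain of 27665 bp, and 61.0% to 63.6% of those bases lay past the TES.

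Among all 316 domains, those that held no TES had less cover in both groups, least so in SCP1_WT replicate 3. The median fill by SCP1_D96A peaks was 4.34% in the 42 domains without a TES, 19.2% in those with 1 and 24.97% in those with 2 or more, and 17 of the 42 had no SCP1_D96A peak. Median cover by SCP1_WT replicate 1 in these classes was 63.5%, 71.5% and 76.4%, by replicate 2 it was 27.0%, 45.6% and 51.1%, and by replicate 3 it was 97.3%, 99.1% and 99.1%. The order of the SCP1_D96A fill rested on SCP1_WT replicate 3, since without that library 8 domains held no TES and the medians were 54.6%, 44.5% and 43.2%. Median cover was then 94.0%, 100% and 99.9% in SCP1_WT replicate 1. In SCP1_WT replicate 2 it was 78.1%, 75.8% and 77.3%, so its order did not hold either. Of the 42 domains, 31 lay inside a protein-coding gene without touching either of its ends, 3 held a TSS but no TES and 8 overlapped no protein-coding gene. An example of the first kind was a domain of 15361 bp inside SSU72, itself a CTD phosphatase gene, which SCP1_D96A peaks filled to 26.8%.

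The 8 domains without a protein-coding gene comprised the 2 over XIST, that over LINC00641, 2 over other long non-coding RNA genes and 3 next to the ends of WDR4, STAU1 and PARP1, at 1235, 20 and 1058 bp. The LINC00641 domain, at 875 bp from HNRNPC, was also close to a protein-coding gene. SCP1_D96A peaks filled 70.5% of the domain near WDR4 and 69.4% of that near STAU1, and 5.31% of that near PARP1. Those near WDR4 and STAU1 had peaks in all 6 lists.

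Starts of protein-coding genes lay in 101 domains, 98 of which also held a TES, and 63 domains contained at least 1 whole gene, 85 genes in all. In the domain with 6 gene ends, the TSS of JMJD8 lay 12317 bp from the domain start, close to the TES of WDR24 at 12604 bp. Cover of this start can thus not be told apart from cover around a gene end. The TSS of JMJD8 was covered in all 6 lists and that of RHBDL1, a rhomboid protease gene, in 5, all but SCP1_D96A replicate 2. The 250 bases before each of these starts are shown from the RefSeq promoter table (GRCh38.p14, 5′ to 3′ on the strand of the gene), with GGGCGG, the core of the GC box, in capitals on either strand.
JMJD8, chr16:684335-684584 (-): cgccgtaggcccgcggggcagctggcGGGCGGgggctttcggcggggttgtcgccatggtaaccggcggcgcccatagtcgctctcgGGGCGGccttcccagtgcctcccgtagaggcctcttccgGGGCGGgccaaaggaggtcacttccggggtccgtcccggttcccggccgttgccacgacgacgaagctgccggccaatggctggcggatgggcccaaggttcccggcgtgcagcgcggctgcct
RHBDL1, chr16:675421-675670 (+): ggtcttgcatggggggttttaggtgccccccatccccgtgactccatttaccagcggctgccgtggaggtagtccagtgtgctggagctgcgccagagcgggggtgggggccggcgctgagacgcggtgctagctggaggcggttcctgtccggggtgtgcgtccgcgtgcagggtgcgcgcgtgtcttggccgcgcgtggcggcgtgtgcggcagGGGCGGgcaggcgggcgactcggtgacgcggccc

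The JMJD8 stretch was 73.6% G and C with 3 matches to GGGCGG, and the RHBDL1 stretch was 72.8% with 1. In windows of 300 bases, 250 before to 50 after the start, promoters with their TSS in a domain (94 with a sequence) had a median G and C content of 69.5%, against 67.7% for the 1913 with their TSS in narrower regions and 62.7% for all 15812. GGGCGG on either strand occurred in 77.7% of them, against 74.9% and 58.5%. CCAAT occurred in 29.8%, against 35.1% and 36.3%, and TATAAA in 5.32%, against 5.07% and 9.64%. The promoters in domains thus lay close to those in narrower regions, and a match is a run of letters and not a bound site.

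Fold enrichment was higher in domain peaks in every list, by little except in SCP1_WT replicate 3. Within each list, the median fold enrichment of the peaks in domains and of the peaks elsewhere was 3.67 and 3.38, 3.64 and 3.52, and 3.97 and 3.11 in SCP1_WT replicates 1, 2 and 3. In SCP1_D96A it was 3.96 and 3.83, 3.94 and 3.86, and 3.96 and 3.83. The mean log2 ratio over the 6 lists was 0.11 ± 0.12 (SD, n = 6), with SCP1_WT replicate 3 highest at 0.35 and the others between 0.03 and 0.12. The median domain peak stood at percentiles 73.8, 61.1 and 94.4 of the fold enrichment in its list in SCP1_WT and at percentiles 58.9, 54.8 and 59.5 in SCP1_D96A. The median of the strongest peak per domain lay between 4.04 and 4.22 in all 6 libraries. The −log10 p-value had medians of 5.36, 5.15 and 6.31 in domains against 4.45, 4.74 and 3.82 elsewhere in SCP1_WT, and of 5.70, 6.07 and 5.65 against 5.36, 5.88 and 5.27 in SCP1_D96A. Its percentiles were 78.2, 63.7 and 95.3 in SCP1_WT and 59.7, 53.9 and 61.0 in SCP1_D96A. Both columns are relative to each library's own background and carry no common scale between libraries. The domains were selected on width, and the peaks elsewhere were mostly narrow. In SCP1_WT replicate 3 the median peak was 10877 bp wide in domains and 793 bp elsewhere. The differences in both columns are therefore not read as separate from the selection on width.

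The domains were spread unevenly over the chromosomes. Chromosomes 19, 17, 16 and 22 carried 48, 43, 37 and 34 of them, together 51.3%, whereas they carried 27.4% of all regions and 19.7% of protein-coding genes. Without SCP1_WT replicate 3 they carried 54 of the 108 domains and 31.2% of the regions. Chromosome 22 had the most per gene, 75.4 domains per 1000 protein-coding genes, against 9.21 on chromosome 1. Chromosome 21 had 41.8 per 1000, above chromosomes 17 (36.8) and 19 (33.1), and chromosome 11 had 5.38. Genes took up 82.3% of the domain bases, and 565 different protein-coding genes, 2.83% of 19973, overlapped a domain.

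The gene lists had shares in domains on either side of the 2.83% of all protein-coding genes, at counts too small to set any of them apart. Cytosolic ribosomal protein genes had 3 of 86 members in domains (3.49%, RPL3, RPL36 and RPS15), translation factors 2 of 69 (2.90%, EIF2S2 and EIF4ENIF1), SR and hnRNP genes 3 of 38 (7.89%, HNRNPAB, HNRNPL and SRSF1), chaperone genes 2 of 80 (2.5%, DNAJC5 and DNAJC7) and zinc finger genes 8 of 509 (1.57%). None of 68 replication-dependent histone genes, 13 immediate early genes, 30 actin and tubulin genes, 41 snRNA genes or 423 tRNA genes lay in a domain, nor did MALAT1 or NEAT1, although both of these lay in narrower regions. Lists as short as those of the histone, immediate early, actin and tubulin genes would hold few members at the share of all genes, so nothing is read from a count of 0. Of the genes in the first 5 of these lists, 63.8% to 79.7% overlapped a region of some width, against 56.6% of all protein-coding genes, and 5 of the 68 histone genes did. Without SCP1_WT replicate 3 the same 5 lists had 2, 1, 2, 1 and 1 members in domains, and 1.02% of all protein-coding genes lay there. Among short RNA genes, 9 of 539 snoRNA and 41 of 1911 microRNA genes lay in domains.

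In the widest domain of each of the first 5 lists the gene faced a neighbour on the other strand, as RPL36 did. HNRNPAB, an hnRNP gene, faced PHYKPL in a domain of 19933 bp that SCP1_D96A peaks filled to 48.0%. DNAJC5, a chaperone gene of synaptic vesicles, faced UCKL1 in 18523 bp filled to 33.6%, with no peak in SCP1_D96A replicate 2. EIF4ENIF1, which shuttles the cap-binding factor eIF4E, faced DRG1 in 13481 bp filled to 17.2%, and ZNF276 faced FANCA in 17798 bp filled to 68.7%. In all of these every SCP1_WT library covered more than every SCP1_D96A library.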

How the data were processed

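Each of the 6 deposited lists holds the broad peaks of 1 library in hg38 coordinates. Per the labels, the submitters' processing notes name FastQC, cutadapt 4.6 and Bowtie2 2.5.2. The caller's version, its control sample and its filters are not given in the sources used here, and the column layout is that of MACS broad peaks. The authors' files give a fold enrichment (a ratio of signal over background) and p-values and q-values on the −log10 scale (lowest −log10 q 1.00 in the lists), and a score that repeats the q column times 10 without decimals and was not used. Peaks were called per library, and the lists hold no counts, so depth is unknown.

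Peaks were merged with an overlap of at least 1 bp in Python 3.11.15 with pandas 2.3.3 and numpy 2.4.6, and the merging was tested on simulated intervals. Genes and their ends came from the RefSeq table of GRCh38.p14. That table gives no strand, so strand came from the RefSeq promoter and microRNA tables and, by gene symbol, from GENCODE release 44, and 98.3% of 19973 protein-coding genes had a strand. The entry C4B_2, listed at the coordinates of an alternate scaffold, was left out. A GRCh38 genome sequence was not used here, so base composition of domains was not computed. Domain cover is the number of bases under the peaks of a list. A region was called where the covered bases of the groups did not overlap, the arrangement that gives an exact permutation test of 3 against 3 libraries its smallest two-sided p, 0.1. Named domains were the 10 widest, every domain with a SCP1_D96A peak of at least 10 kb, the 3 highest and 3 lowest in SCP1_D96A fill among those with peaks in all 6 lists, and the widest of each gene list, each named by its protein-coding and lncRNA genes of over 1000 bp. A domain that this rule names is not reported here. Other genes were named after their values were seen. The members and gene lists were chosen with earlier results of these data known. The labels give matched aliquots of lysate without saying that replicate numbers mark them. Alternatives changed the peak cutoffs, the merging, the minimum width and the libraries used.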

Additional observations from a re-analysis of the deposited data

How the results depend on the processing

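The number of domains followed the width threshold and the length of the lists: 316 as deposited, 560 at 8 kb, 89 at 15 kb, 148 with 1163 peaks per list and 194 with peaks under 6 on the −log10 p scale left out. Under the last 2 settings the domains whose covered bases did not overlap between the groups numbered 103 and 135 (301 as deposited, 519 at 8 kb and 89 at 15 kb), those with peaks in all 6 lists 109 and 87 (183 as deposited, 115 with peaks under 2 on the −log10 q scale left out, 64 at 15 kb, 106 with 10% of the domain covered in each list), and those with a TES 143 with 1163 peaks per list (274 as deposited, 458 at 8 kb, 84 at 15 kb). With 1163 peaks per list the log2 ratio of covered bases was 1.43 and SCP1_D96A peaks filled 34.2%. Leaving out each library in turn gave 108 to 316 domains, log2 ratios of 1.48 to 2.33, filled shares of 20.6% to 44.7%, 100 to 274 domains with a TES, 82 to 238 with peaks in all lists and 104 to 307 without overlap, and the lowest counts, the lowest ratio and the highest filled share were those without SCP1_WT replicate 3. Without that library the median SCP1_D96A fill of domains with no TES was 54.6% (4.34% as deposited), above that of domains with 1 TES (44.5%), an alternative chosen after the data had been seen. The log2 ratio of fold enrichment stayed above 0 throughout (0.02 to 0.16) and moved by less than its SD between libraries. Same-numbered libraries of the 2 groups did not deviate together over the domains (r = 0.14, -0.33 and -0.17), and the replicate block, the mean of the log2 ratios within same-numbered pairs, gave 2.09 as without it. Unknown depth limits comparisons of cover between libraries. The cause of these shifts beyond fewer peaks or libraries was not tested.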
